A study of Homo sapiens with 8 samples.

Results

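A set of 9 genes of bone morphogenetic protein (BMP) signalling was followed in nascent RNA of IMR90 human lung fibroblasts. They were the ligands BMP2 and BMP4, the ligand-binding proteins BMPER and GREM1, the intracellular inhibitor SMAD6 and the target genes ID1, ID2, ID3 and ID4. All 9 were taken by gene symbol from the 28265 genes counted in each library. The set was selected on values of these libraries, namely the counts of BMPER, which changed direction between 3 and 6 days of treatment. The comparisons among untreated cells, 3 days and 6 days are therefore given below as descriptions of the 9 genes without p-values. IMR90 is a line of fibroblasts from fetal lung, used here at low passage in every condition. ICM (inflachromene) is a small molecule that binds the chromatin proteins HMGB1 and HMGB2. The study's supplementary figure legends on nascent RNA give its dose as 10 µM. The 4 conditions were wild-type low-passage cells without ICM (Control; a vehicle is not stated for these libraries), 3 days of ICM, 6 days of ICM and a condition labelled MetaICM, for which neither the labels nor the methods used here explain what was given or for how long. Each condition had 2 libraries, 8 in all, and nothing says whether these came from separate cultures, so p-values may measure technical spread only.

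BMP ligands bind type I and type II receptor kinases at the cell surface, and the receptors phosphorylate SMAD1, SMAD5 and SMAD9, which enter the nucleus with SMAD4. The ID genes are classical direct targets of these SMADs and encode proteins that pair with E proteins such as TCF3 but lack a DNA-binding region. Gremlin-1, the product of GREM1, holds BMP2 and BMP4 away from their receptors, BMPER (crossveinless-2) binds BMPs outside the cell and can either block or promote signalling, and SMAD6 is an inhibitory SMAD that is itself induced by BMPs. In lung, BMP4 and gremlin-1 are known from studies of branching and of fibrosis.

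The deposited values were read counts over exons, summed per gene, with 12095123 to 23166405 counted reads per library. Factory RNA-seq isolates RNA made at transcription factories, while the labels describe poly(A) selection, so mature message may be among the counted exonic reads. Levels are given as CPM, the read count scaled to a common library size with TMM factors over the 8 libraries, and levels are compared between genes only as RPKM, which is CPM per kilobase of exon. All 10 fibroblast markers averaged above 1 CPM over the libraries. Their summed level ran from 23011 to 23448 CPM in Control, 12865 to 14594 at 3 days, 11046 to 11451 at 6 days and 20440 to 21432 in MetaICM. Epithelial markers summed to 1.19 to 2.38 CPM with NKX2-1 at 0. Endothelial markers summed to 187 to 193 CPM in Control, 129 to 136 at 3 days, 165 to 198 at 6 days and 223 to 235 in MetaICM. Of these 8, TEK (123 to 232 CPM), VWF (1.44 to 4.89) and KDR (0.612 to 2.10) averaged above 1 CPM over the libraries. PECAM1 and CDH5 had at most 9 and 1 counts. Smooth muscle markers summed to 606 to 681 CPM in Control, 132 to 149 at 3 days, 143.5 to 143.7 at 6 days and 464 to 510 in MetaICM. Immune markers summed to 5.08 to 6.55 CPM in Control, 18.1 to 22.5 at 3 days, 18.1 to 21.7 at 6 days and 14.3 to 14.9 in MetaICM. CD68 (4.18 to 20.7 CPM) was the 1 marker of 6 that averaged above 1 CPM. In their highest libraries CD14 and PTPRC reached 1.40 and 1.29 CPM, and CD3E was at 0. The part of these shifts in the results below was not tested, and in bulk RNA fewer cells of a kind and less RNA per cell cannot be told apart.

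**Figure D1:**
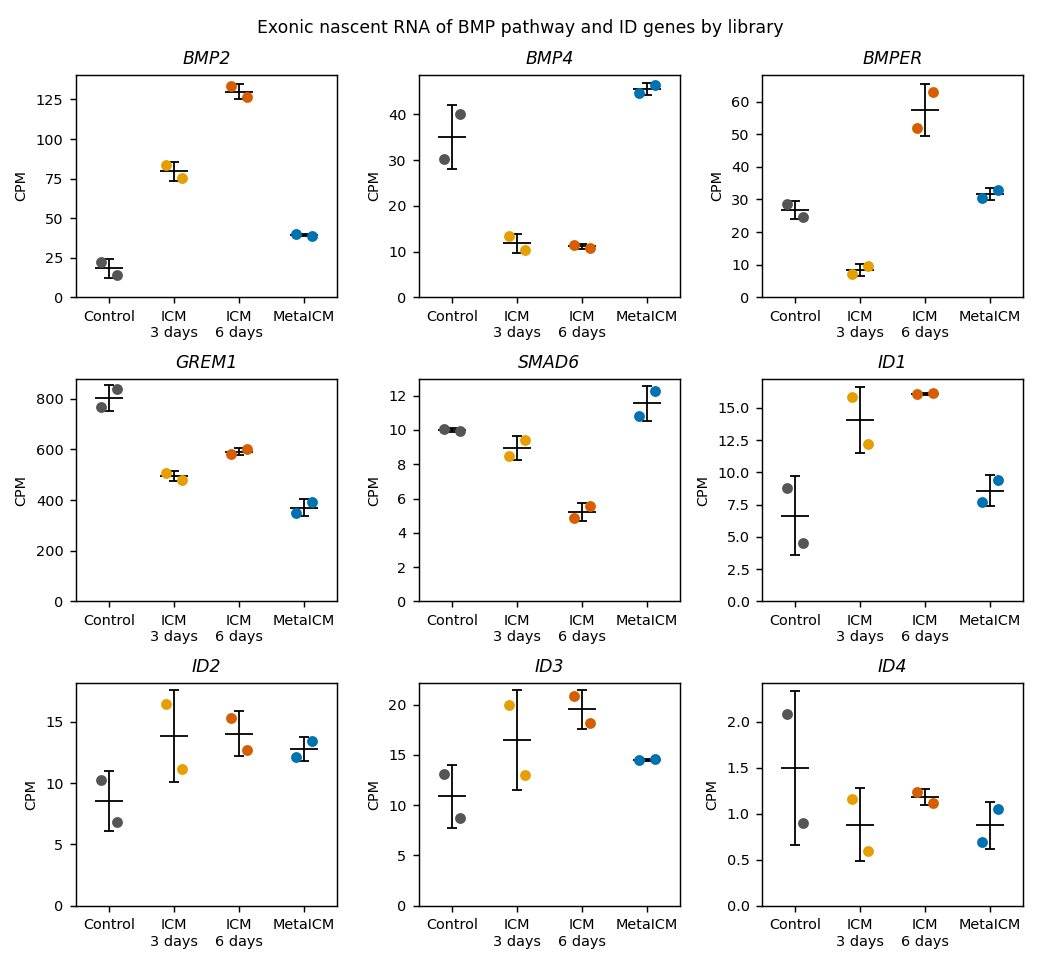
Level of each of the 9 genes in CPM on the vertical axis (linear, from 0) for the 4 conditions on the horizontal axis. Points are single libraries, horizontal lines the mean of 2 libraries and bars the SD; BMP2 lies at 14.1 and 22.5 CPM in Control and at 127 and 133 at 6 days, and BMPER lies at 7.11 and 9.70 at 3 days and at 51.8 and 63.0 at 6 days.

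BMP2, an inducer of bone and of ID transcription that lies at chr20:6748333-6760893 (plus strand, hg19), had the widest range of the 9 genes. It stood at 22.5 and 14.1 CPM in the 2 Control libraries, 83.7 and 75.4 at 3 days, 133 and 127 at 6 days and 40.0 and 39.0 in MetaICM. The 4 conditions did not overlap, in the order Control, MetaICM, 3 days and 6 days, and the highest library held 9.46 times the level of the lowest. Against Control, the log2 fold change (log2FC) was 2.10 ± 0.19 (SE, n = 2 libraries per condition throughout) at 3 days and 2.80 ± 0.18 at 6 days, and 6 days stood 0.70 ± 0.09 above 3 days. The 2 Control libraries differed 1.597-fold. Without any one library the 3-day value stayed between 1.82 and 2.48 and the 6-day value between 2.53 and 3.18. The upper values were those without Control replicate 1.

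BMP4, the closest relative of BMP2 among the ligands, was lower under ICM, where BMP2 was higher. The gene lies at chr14:54416455-54423609 on the minus strand. Its levels were 30.2 and 40.0 CPM in Control, 13.3 and 10.4 at 3 days, 11.5 and 10.7 at 6 days and 44.7 and 46.5 in MetaICM. Both ICM times lay below every Control library and overlapped each other, and MetaICM lay above Control. The log2FC against Control was -1.57 ± 0.19 at 3 days and -1.67 ± 0.17 at 6 days, and between the 2 times it was -0.11 ± 0.16.

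The balance of the 2 ligands differed between conditions. Per exon length, BMP2 made up 35.1% and 20.4% of the summed BMP2 and BMP4 RPKM in the Control libraries, 82.1% and 84.1% at 3 days, 89.4% and 89.6% at 6 days and 39.5% and 37.9% in MetaICM. BMP4 was thus the larger share in Control and MetaICM and BMP2 the larger share under ICM. The sum of both spanned a narrower range than BMP2 alone, with 18.8 ± 1.01 RPKM in Control (SD, n = 2), 27.0 ± 2.46 at 3 days, 41.0 ± 1.54 at 6 days and 28.8 ± 0.292 in MetaICM.

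GREM1, the ligand trap gremlin-1, was the most abundant of the 9 per exon length in Control, at a mean of 54.2 RPKM against 13.6 for BMP4 and 11.5 for ID3. It lies at chr15:33010205-33037307 on the plus strand, and 219 of its 14794 exon bases overlap LOC100131315 on the other strand, where the unstranded counting could not assign a read to one gene. Control libraries held 765 and 838 CPM, the 3-day libraries 508 and 480, the 6-day libraries 582 and 600.3, and the MetaICM libraries 348 and 393. The conditions did not overlap, with MetaICM lowest, then 3 days, 6 days and Control. The log2FC against Control was -0.71 ± 0.13 at 3 days and -0.45 ± 0.11 at 6 days, and 6 days stood 0.25 ± 0.08 above 3 days.

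The ratio of GREM1 to the summed ligands BMP2 and BMP4, in RPKM, was 2.86 and 2.90 in Control. It was 1.24 ± 0.0638 at 3 days (SD, n = 2), 0.976 ± 0.0583 at 6 days and 0.868 ± 0.0653 in MetaICM, and all libraries of these 3 conditions lay below the Control libraries. In the ICM libraries GREM1 was lower and BMP2 higher than in Control, and in MetaICM GREM1 was lower while the ligand sum stood at 28.8 RPKM.

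**Figure D2:**
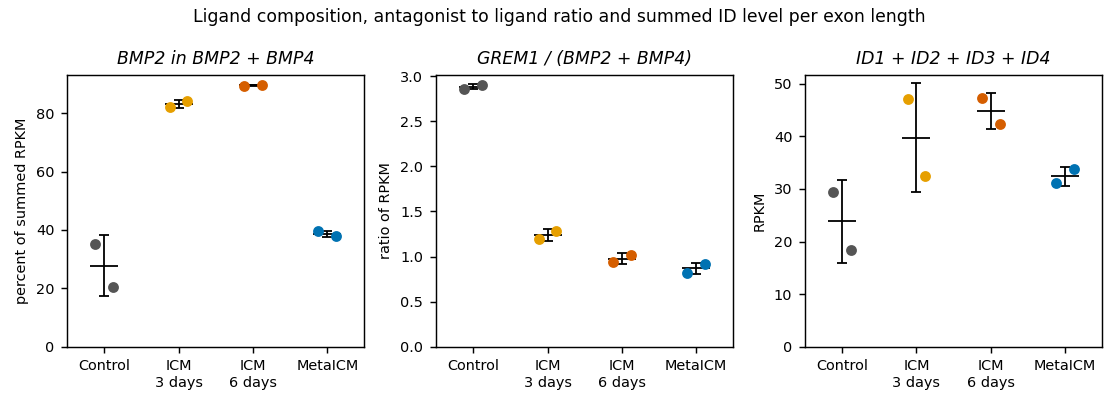
Percent of the summed BMP2 and BMP4 RPKM that is BMP2 (left), ratio of GREM1 RPKM to BMP2 plus BMP4 RPKM (middle) and summed RPKM of ID1 to ID4 (right) on linear axes from 0, by condition. Points are libraries, lines means of 2 and bars SD; BMP2 is 20.4% to 35.1% of the pair in Control and 82.1% or more under ICM, and the GREM1 ratio lies at 2.86 and 2.90 in Control.

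BMPER, the gene behind the choice of this set, lies at chr7:33944527-34196039 on the plus strand with 16 merged exons. Its levels were 28.8 and 24.7 CPM in Control, 7.11 and 9.70 at 3 days, 51.8 and 63.0 at 6 days and 30.3 and 32.9 in MetaICM. The 3-day libraries held 153 and 146 reads and the 6-day libraries 962 and 1187. All 4 conditions were separate, in the order 3 days, Control, MetaICM and 6 days. The log2FC against Control was -1.69 ± 0.19 at 3 days and 1.09 ± 0.14 at 6 days, and the later time stood 6.89-fold above the earlier one (log2FC 2.79 ± 0.15). Without any one library the 3-day value stayed between -1.93 and -1.46 and the 6-day value between 0.94 and 1.22. GREM1 exceeded BMPER per exon length by 22.8 ± 5.85 times at 3 days and 3.91 ± 0.455 times at 6 days (SD, n = 2), with 11.4 ± 1.93 in Control and 4.42 ± 0.124 in MetaICM.

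The promoter of BMPER is shown because the set was built around this gene. The window covers the 240 bases that end 11 bases before its first start (chr7:33944277-33944516, plus strand, hg19, 70.4% GC), and capitals mark GGCGCC, a GC-rich element known from BMP-responsive promoters, and the CCAAT box read on the other strand.
BMPER: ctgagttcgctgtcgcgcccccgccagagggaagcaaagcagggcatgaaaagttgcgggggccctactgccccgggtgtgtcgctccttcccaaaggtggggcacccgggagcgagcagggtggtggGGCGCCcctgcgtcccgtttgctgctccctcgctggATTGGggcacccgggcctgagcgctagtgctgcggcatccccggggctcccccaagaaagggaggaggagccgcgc
The GGCGCC begins at base -122 and the CCAAT box at -86 relative to the start. Of 35116 RefSeq promoter windows of this length, 15.5% hold GGCGCC and 31.4% hold CCAAT on either strand, so both matches are common letters and no more than a description.

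SMAD6, the inhibitory SMAD at chr15:66994574-67075187 (plus strand), was at 10.1 and 9.91 CPM in Control, 8.46 and 9.44 at 3 days, 4.85 and 5.58 at 6 days and 10.8 and 12.3 in MetaICM. The 6-day libraries were the lowest pair, and the other conditions lay close to each other. The log2FC against Control was -0.17 ± 0.20 at 3 days and -0.95 ± 0.19 at 6 days, and from 3 to 6 days it was -0.78 ± 0.19. Without ICM 6 days replicate 1 the last 2 values were -0.85 and -0.69.

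The 4 ID genes were far apart in level. In Control the means were 11.5 RPKM for ID3, 6.58 for ID2, 5.45 for ID1 and 0.386 for ID4. Their summed RPKM was 29.5 and 18.3 in Control, 47.0 and 32.4 at 3 days, 47.3 and 42.4 at 6 days and 31.0 and 33.7 in MetaICM. ID3 gave 43.4% to 48.4% of the sum in each condition on average and ID4 0.558% to 1.55%. The mean share of ID1 was 22.3% in Control, 29.2% at 3 days, 29.5% at 6 days and 21.7% in MetaICM.

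ID1, at chr20:30193092-30194313 (plus strand), is a common readout of BMP signalling. It was at 8.81 and 4.51 CPM in Control, 15.9 and 12.2 at 3 days, 16.0 and 16.1 at 6 days and 7.74 and 9.44 in MetaICM. Both ICM times lay above Control and MetaICM, and MetaICM overlapped Control. The log2FC against Control was 1.05 ± 0.27 at 3 days and 1.23 ± 0.24 at 6 days, and between the times it was 0.18 ± 0.14. Control replicate 2 held 55 ID1 reads against 148 in replicate 1, and leaving out replicate 1 gave 1.63 at 3 days and 1.81 at 6 days, against 0.68 and 0.87 without replicate 2.

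ID2 (chr2:8822186-8824591, plus strand) was at 10.3 and 6.80 CPM in Control, 16.5 and 11.2 at 3 days, 15.3 and 12.7 at 6 days and 12.1 and 13.5 in MetaICM. The 3 conditions other than Control overlapped one another, and all lay above it. The log2FC was 0.68 ± 0.24 at 3 days and 0.69 ± 0.21 at 6 days, and without Control replicate 2 the 6-day value was 0.45. ID3 (chr1:23884417-23885992, minus strand) was at 13.1 and 8.68 CPM in Control, 19.99 and 13.0 at 3 days, 20.9 and 18.2 at 6 days and 14.4 and 14.6 in MetaICM. The 3-day libraries of ID3 overlapped Control and the 6-day libraries did not. Its log2FC was 0.59 ± 0.24 at 3 days and 0.82 ± 0.19 at 6 days, with 0.58 at 6 days without Control replicate 2. ID4 (chr6:19837601-19842426, plus strand) had 9 to 35 reads per library, neighbouring conditions in order of level overlapped, and its log2FC was -0.76 ± 0.48 at 3 days and -0.40 ± 0.42 at 6 days.

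ID1, ID2 and ID3 are short genes, with 950 to 1299 exon bases, and other genes of this length also had medians above those of all genes. Among 706 other genes of that length tested at 3 days, the median log2FC was 0.19 against 0.0094 over all genes, and at 6 days it was 0.16 among 729 genes. Of these genes 11.9% were called higher at 3 days and 18.9% at 6 days, beside 8.85% and 13.3% of all genes. Between the Control libraries themselves, short genes were 0.12 higher in replicate 1 than in replicate 2 (median log2, 570 genes, against 0.029 over all genes), and BMP2, ID1, ID2 and ID3 were all lowest in Control replicate 2. The part of this length class in the ID values was not tested.

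The promoters of ID1 and ID3 are set side by side as examples of ID genes that were higher at 6 days than in Control, as ID2 also was. Each window is the 240 bases that end 11 bases before the start, for ID1 at chr20:30192842-30193081 (plus strand, hg19, 65.8% GC) and for ID3 at chr1:23886003-23886242 (minus strand, printed 5′ to 3′ along the gene), with CCAAT (here as ATTGG) and TATAAA in capitals.
ID1: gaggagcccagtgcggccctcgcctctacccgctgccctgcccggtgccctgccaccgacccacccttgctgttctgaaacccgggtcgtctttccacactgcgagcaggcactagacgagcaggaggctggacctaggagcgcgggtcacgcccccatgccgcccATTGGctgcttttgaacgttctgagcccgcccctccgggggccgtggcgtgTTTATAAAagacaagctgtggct
ID3: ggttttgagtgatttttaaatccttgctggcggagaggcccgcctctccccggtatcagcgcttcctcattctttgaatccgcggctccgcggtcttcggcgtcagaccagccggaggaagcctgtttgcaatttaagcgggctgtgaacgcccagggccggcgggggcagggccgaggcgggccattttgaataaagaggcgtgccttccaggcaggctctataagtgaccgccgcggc
In ID1 the CCAAT box begins at -84 and TATAAA, read on both strands in overlapping letters, lies between it and the start. The ID3 window held neither of these, nor the GGCGCC searched for in BMPER. A known SMAD-binding element, the letters CAGACA, was in neither window. It occurs on either strand in 13.1% of the 35116 windows, against 10.6% for the TATA element. The windows of ID1 and ID3 thus had no searched motif in common. Those of ID2 and ID4, not printed, did share letters with ID1. ID2 held CCAAT at 3 places, and ID4 held 1 CCAAT and 1 TATAAA. No match says only that these letters are not in this window.

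**Figure D3:**
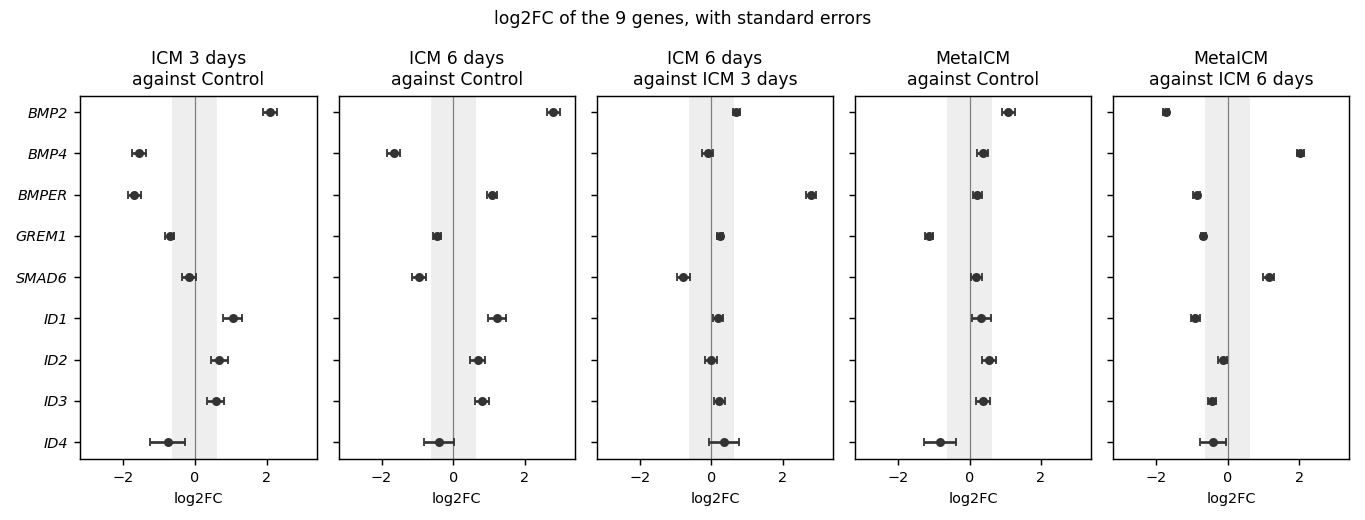
The log2FC of each of the 9 genes on the horizontal axis in 5 comparisons, with bars of the standard error and 2 libraries per condition; the grey band is a log2FC within 0.6 of 0. BMPER lies left of the band at 3 days (-1.69) and right of it at 6 days (1.09).

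Genes were counted at an absolute log2FC above 0.6 with an adjusted p under 0.05 in edgeR. These are the cutoffs in the study's results text, while its methods give 0.01 for the adjusted p. By this count 2 of the 9 genes were higher and 3 lower at 3 days, where 22.0% of the 15692 genes tested were called (8.85% higher and 13.2% lower). At 6 days 5 were higher and 2 lower, where 30.5% of 15950 were called (13.3% higher and 17.2% lower). From 3 to 6 days 2 were higher and 1 lower, where 8.07% of 15845 were called (3.53% higher and 4.54% lower). These counts describe the chosen set and nothing is read from them. Without ICM 6 days replicate 1, SMAD6, ID2 and ID3 were no longer called at 6 days, nor SMAD6 from 3 to 6 days. The median log2FC of the 9 was -0.17 at 3 days and 0.69 at 6 days against Control, beside medians of 0.0094 and -0.0013 over all genes. The libraries of the compared conditions did not overlap for 7 and 8 of the 9, beside 65.2% and 72.8% of all genes, and from 3 to 6 days for 5 of the 9, beside 59.0%. With scaling by library totals, ID2 and ID3 were also called at 3 days, and the split of all calls there moved from 1389 higher and 2067 lower to 1785 higher and 1767 lower.

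The rule that chose the genes names no MetaICM value, and the 8 genes other than BMPER were tested there. The same Control and 6-day libraries enter, and the genes were chosen with earlier results of these data known. The p-values are therefore not independent of the choice and describe these 8 genes. BMPER, whose Control and 6-day levels chose the set, is given without a p-value. Against Control, of these 8 BMP2 rose and GREM1 fell, with 16.4% of the 15904 genes tested called (7.41% higher and 8.99% lower). BMP2 rose 2.12-fold (log2FC 1.08 ± 0.18, adjusted p = 0.00299, edgeR) and GREM1 fell to a log2FC of -1.13 ± 0.12 (adjusted p = 0.000326, edgeR). The other 6 did not pass the test. The libraries of MetaICM and Control did not overlap for 7 of the 9 with BMPER included, beside 68.3% of all genes. BMP4 stood at 0.37 ± 0.15 (adjusted p = 0.0885, edgeR) and SMAD6 at 0.19 ± 0.16 (adjusted p = 0.395), and BMPER was at 0.22 ± 0.13. Among the ID genes the log2FC was 0.33 ± 0.27 for ID1, 0.55 ± 0.20 for ID2, 0.38 ± 0.19 for ID3 and -0.83 ± 0.45 for ID4, with adjusted p from 0.0646 to 0.386 (edgeR). The ID values rest on which Control library is used. Without Control replicate 1, ID1, ID2 and ID3 passed the test at 0.91, 0.89 and 0.71 (adjusted p = 0.00338, 0.000823 and 0.00227, edgeR), and without Control replicate 2 ID1 was at -0.04 and ID4 passed at -1.24 (adjusted p = 0.0264, edgeR). The 717 other genes of the length of ID1 to ID3 had a median log2FC of 0.25 here, against -0.0011 over all genes.

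Between MetaICM and 6 days of ICM 5 of the 8 genes passed the test, 2 higher and 3 lower, with 27.7% of the 16036 genes tested called (15.7% higher and 12.0% lower). The libraries did not overlap for 8 of the 9 with BMPER included, beside 76.2% of all genes. BMP4 was 4.08-fold higher in MetaICM (log2FC 2.03 ± 0.10, adjusted p = 2.01e-13, edgeR) and SMAD6 2.21-fold higher (1.14 ± 0.16, adjusted p = 2.79e-06). BMP2 was lower at a log2FC of -1.72 ± 0.08 (adjusted p = 5.03e-14, edgeR), GREM1 at -0.68 ± 0.08 (adjusted p = 2.12e-07) and ID1 at -0.91 ± 0.13 (adjusted p = 6.26e-06). BMPER was at -0.87 ± 0.09. ID3 was at -0.43 ± 0.11, short of the fold threshold although its adjusted p was 0.00255 (edgeR). ID2 and ID4 did not pass the test, at -0.14 ± 0.13 and -0.42 ± 0.36 (adjusted p = 0.381 and 0.345, edgeR). Without MetaICM replicate 1, GREM1 was at -0.59 and no longer counted. Every one of the 9 passed the filter on low counts in each of the 5 comparisons.

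The rest of the BMP pathway was taken from a list of 64 further ligands, proteases, antagonists, receptors, co-receptors, SMADs and their regulators, targets and ID partners, of which 49 or 50 were tested in each comparison. At 3 days 2 were called higher and 12 lower, or 28.0% of the tested, beside 22.0% of all genes, and at 6 days 4 were higher and 11 lower, or 30.6% beside 30.5%. From 3 to 6 days 9 were higher and 5 lower, 28.0% beside 8.07% of all genes. Against Control, MetaICM had 4 higher and 7 lower (22.0% beside 16.4%), and against 6 days 14 higher and 4 lower (36.0% beside 27.7%). The median log2FC of the tested list was -0.25 at 3 days, -0.18 at 6 days, 0.063 from 3 to 6 days, -0.11 for MetaICM against Control and 0.16 against 6 days, beside 0.0094, -0.0013, -0.0083, -0.0011 and 0.0069 over all genes. The list was drawn up with earlier results of these data known. Its shares and the p-values of its genes below therefore describe the list and are not independent of its choice.

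Of the 11 other ligands, 8 were tested at 3 days. None was called higher, beside 8.85% of all genes, and 3 were called lower, beside 13.2%. These were GDF5 (log2FC -0.90 ± 0.25), GDF7 (-1.26 ± 0.30) and BMP5 (-1.93 ± 0.43), growth factors best known from joint, nervous system and skeletal development, with adjusted p of 0.0184, 0.00754 and 0.00550 (edgeR). The GDF5 call was lost without Control replicate 1 (-0.76, adjusted p = 0.0512, edgeR) and without ICM 3 days replicate 2 (-0.75, adjusted p = 0.109). BMP6, a ligand known for controlling hepcidin, was at 8.90 ± 0.043 CPM in Control, 11.1 ± 1.37 at 3 days, 19.4 ± 2.04 at 6 days and 7.03 ± 0.325 in MetaICM (SD, n = 2). It rose at 6 days against Control (1.11 ± 0.16, adjusted p = 0.000370, edgeR) and was lower in MetaICM than at 6 days (-1.47 ± 0.13, adjusted p = 5.05e-09). Of the 3784 exon bases of BMP6, 479 lie opposite another gene, and of the 2634 of GDF5, 800 lie opposite GDF5-AS1. GDF6, a ligand of eye and joint development, was highest in MetaICM, at 4.51 ± 0.355 CPM in Control, 3.800 ± 0.674 at 3 days, 6.25 ± 0.695 at 6 days and 27.9 ± 0.257 in MetaICM. It rose 6.08-fold against Control (SE 0.16 on the log2 scale, adjusted p = 1.25e-05, edgeR) and against 6 days by 2.15 ± 0.12 (adjusted p = 2.80e-12), the largest rise of the list in both. From 3 to 6 days 4 of 8 tested ligands were called higher, beside 3.53% of all genes. These were BMP3 (1.67 ± 0.40), BMP6 (0.79 ± 0.14), GDF6 (0.69 ± 0.21) and GDF5 (0.69 ± 0.22). DESeq2 did not call GDF5 and GDF6 (adjusted p = 0.107 and 0.0971) and gave BMP3 no adjusted p. Without ICM 3 days replicate 2 or either 6-day library GDF5 had adjusted p from 0.0921 to 0.149 and GDF6 from 0.0513 to 0.230 (edgeR), and BMP3 had 0.0553 without ICM 6 days replicate 2. BMP5 was higher in MetaICM than at 6 days (1.69 ± 0.32, adjusted p = 0.000143, edgeR), on 81 and 114 reads against 40 and 12, and DESeq2 did not call it (adjusted p = 0.0749).

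Of 9 antagonists tested, 4 were called lower at 3 days, beside 13.2% of all genes, and none higher. Among them, NOG (noggin, a trap of BMP2 and BMP4) was at -1.40 ± 0.33, the chordin relative CHRDL2 at -3.10 ± 0.47 and FST (follistatin, which binds activins and BMPs) at -1.06 ± 0.16, with adjusted p of 0.00724, 0.000374 and 0.000382 (edgeR). CHRDL2 had 40 and 53 reads in Control and 4 to 27 in the rest. At 6 days NOG (-0.85 ± 0.28) and CHRDL2 (-3.60 ± 0.49) were called lower, but NOG was at -0.36 without Control replicate 1 and did not pass, nor did it without ICM 6 days replicate 1 (adjusted p = 0.205, edgeR) or by DESeq2 (adjusted p = 0.0615). FST was at 73.5 ± 12.9 CPM at 3 days and 163 ± 36.7 at 6 days, beside 152 ± 29.9 in Control (6 days against 3 days 1.14 ± 0.13, adjusted p = 4.26e-06, edgeR). FSTL1 (0.83 ± 0.09), TWSG1 (0.69 ± 0.10) and CRIM1 (0.61 ± 0.09) also rose from 3 to 6 days, so 4 of 8 tested antagonists were called higher there, beside 3.53% of all genes. Of these 4, TWSG1 and CRIM1 missed the fold threshold without ICM 6 days replicate 1, at 0.58 and 0.55, and without ICM 3 days replicate 2, both at 0.59. In MetaICM, CHRDL2 was called lower than Control (-1.88 ± 0.41). Against 6 days NOG was higher by 1.43 ± 0.17 (adjusted p = 4.71e-07, edgeR), at 10.02 ± 0.139 CPM beside 3.71 ± 0.531. CHRDL2 (1.73 ± 0.52) and FSTL3 (0.64 ± 0.09) were also called higher there, but without MetaICM replicate 2 they were at 1.14 and 0.50 and no longer called, and CHRDL2 had an adjusted p of 0.0615 (edgeR) without ICM 6 days replicate 1 and 0.0912 by DESeq2.

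Of 7 receptors none was called at 3 days, beside 22.0% of all genes, 2 at 6 days beside 30.5%, 1 in MetaICM against Control beside 16.4% and 3 in MetaICM against 6 days beside 27.7%. At 6 days BMPR2 (-0.61 ± 0.13), the BMP type II receptor, and ACVR2B (-0.78 ± 0.20) were called lower (adjusted p = 0.00300 and 0.00905, edgeR). Neither call held without each library in turn, and BMPR2 also missed the fold threshold with scaling by library totals (-0.57) and without the count filter (-0.59). Without Control replicate 2 BMPR2 was at -0.45, and without ICM 6 days replicate 1 ACVR2B had an adjusted p of 0.126 (edgeR). BMPR2 was also lower in MetaICM than in Control (-0.70 ± 0.12, adjusted p = 0.00339, edgeR), with -0.54 without Control replicate 2. Against 6 days, MetaICM was higher for ACVRL1 (0.77 ± 0.11) and ACVR2B (0.63 ± 0.17) and lower for ACVR1 (-0.64 ± 0.09). Without ICM 6 days replicate 1 ACVR2B was at 0.51 and ACVR1 at -0.52, and without MetaICM replicate 2 ACVR2B was at 0.50. Among co-receptors, NEO1 (neogenin) was lower at 3 days (-0.72 ± 0.13) and TGFBR3 (betaglycan) at both times (-0.80 ± 0.15 and -0.70 ± 0.14). NEO1 was higher in MetaICM than at 6 days (0.95 ± 0.07, adjusted p = 6.07e-10, edgeR), and RGMA was called higher at 3 days on 15 and 14 reads against 5 and 1 in Control. DESeq2 did not call RGMA (adjusted p = 0.191), and edgeR did not without either 3-day library or without Control replicate 2.

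SMAD9, a receptor-activated SMAD, was at 24.0 ± 0.531 CPM in Control, 34.9 ± 1.38 at 3 days, 45.6 ± 4.49 at 6 days and 15.2 ± 0.617 in MetaICM. It rose at 6 days (0.91 ± 0.13, adjusted p = 0.000350, edgeR), and in MetaICM it was lower than Control (-0.68 ± 0.13, adjusted p = 0.00571) and than 6 days (-1.59 ± 0.10, adjusted p = 1.14e-11). The MetaICM call against Control was lost without either MetaICM library (adjusted p = 0.0932 and 0.0722, edgeR). SMAD7, the other inhibitory SMAD, was at 17.4 ± 0.606 CPM at 3 days and 9.44 ± 0.0212 at 6 days (-0.89 ± 0.14, adjusted p = 0.000165, edgeR), with 12.0 ± 0.871 in Control. SKI and SKIL, repressors that bind SMADs, were lower at 6 days than in Control (-1.17 ± 0.13 and -0.84 ± 0.16) and than at 3 days (-0.68 ± 0.10 and -0.94 ± 0.09). SKI was higher in MetaICM than at 6 days (0.77 ± 0.08), while SKIL was lower in MetaICM than in Control (-1.20 ± 0.15), and its 6-day value against Control was -0.57 without Control replicate 2. SMAD1, SMAD4, SMAD5 and the ubiquitin ligases SMURF1 and SMURF2 were called in no comparison. Among proteases, BMP1, which cleaves the antagonist chordin, was lower at 3 days (-0.67 ± 0.13) and 6 days (-0.79 ± 0.11) and higher in MetaICM than at 6 days (0.69 ± 0.07). PCSK5, a proprotein convertase, was higher at 6 days than in Control (0.69 ± 0.13) and lower in MetaICM than at 6 days (-0.90 ± 0.09), where FURIN was higher (0.73 ± 0.10). Calls were lost for BMP1 at 3 days without Control replicate 1 (-0.57), for PCSK5 at 6 days without ICM 6 days replicate 1 (adjusted p = 0.0523, edgeR) and for FURIN without ICM 6 days replicate 2 (0.56).

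Other targets were called in both directions. Of 6 tested at 3 days, TBX3 was higher (0.86 ± 0.12, adjusted p = 0.000241, edgeR) and RUNX2, the osteoblast regulator, lower (-1.09 ± 0.22, adjusted p = 0.00258), and at 6 days MSX1 was higher (1.67 ± 0.40) and RUNX2 lower (-1.82 ± 0.18). The MSX1 call was lost without ICM 6 days replicate 1 (1.43, adjusted p = 0.0728, edgeR). RUNX2 was at 17.5 ± 0.407 CPM in Control, 8.32 ± 2.43 at 3 days, 5.003 ± 0.616 at 6 days and 11.5 ± 0.876 in MetaICM. It was lower at 6 days than at 3 days (-0.72 ± 0.22), a call lost without ICM 3 days replicate 2 (-0.39) and without ICM 6 days replicate 2 (adjusted p = 0.137, edgeR) and by DESeq2 (adjusted p = 0.0621), and higher in MetaICM than at 6 days (1.20 ± 0.16). ATOH8 was higher at 6 days than at 3 days (0.81 ± 0.16). In MetaICM the homeobox genes MSX1 (1.36 ± 0.39) and MSX2 (1.72 ± 0.24) and GATA2 (0.72 ± 0.18) were higher than Control and RUNX2 was lower (-0.61 ± 0.15). MSX2 was called under every alternative run, at 8.34 ± 1.56 CPM beside 2.49 ± 0.272 in Control, and was also higher than at 6 days (2.83-fold). Without either MetaICM library RUNX2, MSX1 and GATA2 lost the call, as did RUNX2 and GATA2 without Control replicate 2 (-0.58 and 0.56) and MSX1 without Control replicate 1 (adjusted p = 0.0537, edgeR) and by DESeq2 (adjusted p = 0.126). Of the E proteins that pair with ID proteins, TCF3 fell to -0.62 ± 0.14 at 3 days and -1.18 ± 0.14 at 6 days against Control (adjusted p = 0.00543 and 7.46e-05, edgeR; -0.54 at 3 days without Control replicate 1) and was higher in MetaICM than at 6 days (1.22 ± 0.10). TCF4 was lower at 6 days than at 3 days (-0.67 ± 0.10) and in MetaICM than in Control (-0.73 ± 0.12), and TCF12 was called in no comparison. The levels of TCF3 were 49.98 ± 3.82 CPM in Control, 32.8 ± 0.743 at 3 days, 22.2 ± 2.52 at 6 days and 51.7 ± 4.88 in MetaICM.

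**Figure D4:**
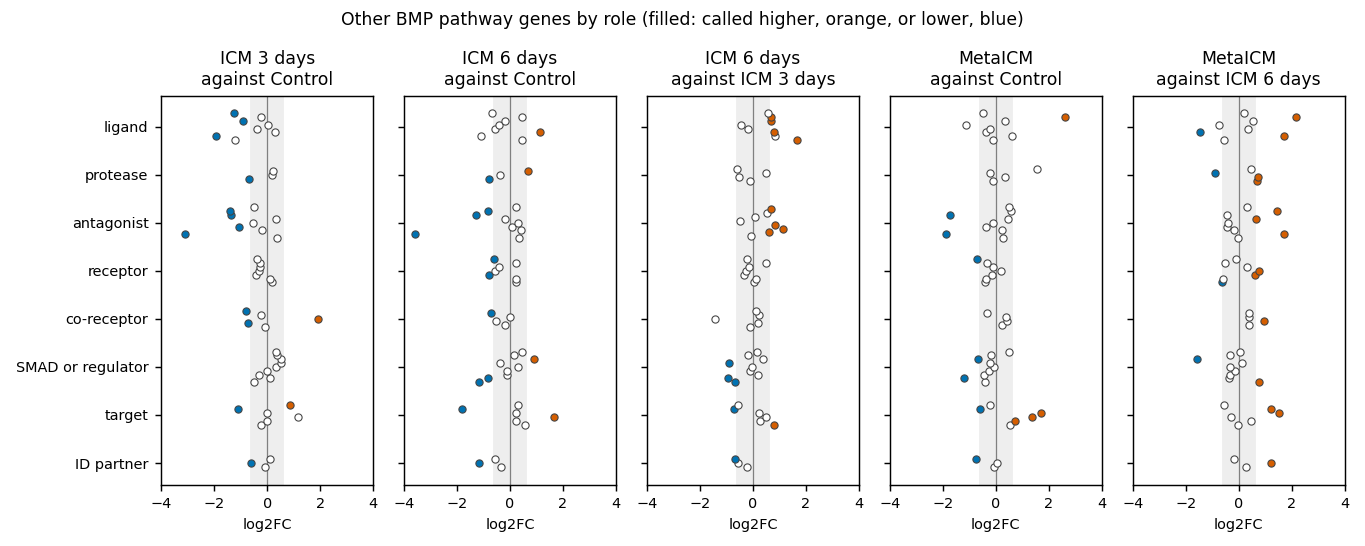
The log2FC of the tested genes of the 64-gene list on the horizontal axis, in rows by role and in 5 comparisons; points are genes, filled orange where called higher and blue where called lower, with the band of absolute log2FC up to 0.6 in grey. At 3 days 12 of the 14 called genes lie left of 0, and from 3 to 6 days 9 of 14 lie right of it.

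Genes with the profile closest to BMPER over the 8 libraries were sought among 14109 genes with at least 10 reads in each, by the root-mean-square difference of mean-centred log2 CPM. The nearest was MT1E, a metallothionein (difference 0.33), with means of 9.60, 3.76, 16.8 and 14.9 CPM in Control, 3 days, 6 days and MetaICM, followed by MAMDC2 (0.42) and the receptor tyrosine kinase gene KIT (0.44). MAMDC2 stood at 13.0, 9.08, 40.5 and 21.1 CPM in the same order and KIT at 18.7, 4.81, 21.2 and 25.5, so each had its lowest mean at 3 days. For ID1 the nearest were the mitochondrial ribosomal protein gene MRPL14 (0.13), the fatty acid desaturase gene FADS2 (0.14) and the glycolytic enzyme gene PKM (0.16), all lowest in Control and highest at 6 days. ID3 ranked 206 and ID2 ranked 492 by closeness to ID1. These likenesses are descriptions over 8 libraries in 4 conditions, with replicates of a condition sharing their treatment.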

How the data were processed

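Factory RNA-seq was analysed in 8 libraries of IMR90 cells, 2 in each of 4 conditions. Per the file headers, the authors counted reads over exons per gene with featureCounts 1.6.3, in pairs, primary alignments only and without strand, on hg19 RefSeq genes, and deposited raw counts. Their processing notes name STAR 2.6.0c and GRCh37. Without strand, reads from a gene and its antisense partner cannot be told apart. The study's own nascent values used intronic reads, which were not analysed here.

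From the counts, edgeR 4.0.16 (R 4.3.3) quasi-likelihood tests were run with TMM scaling, filterByExpr at a minimum count of 10 and Benjamini-Hochberg adjustment over all genes tested, on the 4 libraries of each comparison. Totals ranged from 12095123 to 23166405 counts, and standard errors are the log2FC over the square root of F. A gene was called at an adjusted p under 0.05 and an absolute log2FC over 0.6. The members and lists were chosen with earlier results of these data known. The text names all 9 genes, each of the 64 further pathway genes called at least once with 10 or more counts in each library of the higher condition, and the 3 genes nearest to BMPER and to ID1. One pathway gene that this rule names is counted but not reported here. Replicates were compared and none were identical. Tests were checked on simulated data. Alternatives were DESeq2 1.42.0 (test and size factors), library totals, no count filter, all 8 libraries in 1 fit, the replicate block, an adjusted p under 0.01 and each library left out. Promoter windows came from a RefSeq table (GRCh38.p14), which held 8 of the 9 genes, and were placed on GRCh37 by exact match.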

Additional observations from a re-analysis of the deposited data

Results flagged for a closer look

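BMPER differed between the 2 ICM times in direction. Against Control its log2FC was -1.69 at 3 days and 1.09 at 6 days, and both libraries of each time moved the same way. This opposite movement is why the set was chosen, so it was not tested.

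Of the wider pathway, 14 genes differed between the 2 times by the edgeR test of 6 days against 3 days, which is the test of the difference between their changes from the shared Control. The higher ones were BMP3 (log2FC 1.67), FST (1.14), FSTL1 (0.83), ATOH8 (0.81), BMP6 (0.79), GDF5 (0.69), GDF6 (0.69), TWSG1 (0.69) and CRIM1 (0.61). The lower ones were SKIL (-0.94), SMAD7 (-0.89), RUNX2 (-0.72), SKI (-0.68) and TCF4 (-0.67). Under the alternatives that kept all libraries 9 of the 14 stayed called, and BMP3, GDF5, GDF6, CRIM1 and RUNX2 did not. The BMP3 value rests on 11 and 11 reads at 3 days and 31 and 42 at 6 days. With 2 libraries per condition no library could be tested for standing apart from its group.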

How the results depend on the processing

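For the 9 genes there were 495 values under the alternatives. Of these, 470 kept their direction and side of the threshold or, where untested, moved by less than the spread. A further 19 moved by more, 5 changed their call and 1 changed sign. Changes of call were counted only in the comparisons with MetaICM. In the others the label followed the shift in log2FC, so a stricter adjusted p could not alter it. Changes of sign there were counted only for called genes. Under the alternatives that kept all libraries, calls there held for 4 of 5 genes at 3 days, 6 of 7 at 6 days and 3 of 3 from 3 to 6 days. The counted change of sign was ID1 in MetaICM against Control, at -0.040 without Control replicate 2 and 0.91 without Control replicate 1. At an adjusted p under 0.01, 1532 genes were called for MetaICM against Control in place of 2609. That count was 1225 without MetaICM replicate 2 and 3964 without Control replicate 1. Leaving out each library in turn gave 2625 to 4074 called genes at 3 days, 3537 to 5320 at 6 days, 1019 to 1535 from 3 to 6 days and 3923 to 4327 for MetaICM against 6 days. For the 9 genes the counts in that order, with MetaICM against Control before the last, were 5 to 7, 4 to 7, 2 to 3, 2 to 5 and 5 to 6, and for the other pathway genes 12 to 14, 12 to 19, 11 to 16, 7 to 17 and 15 to 20. A condition left with 1 library was assumed to vary like the other. Scaling by library totals also took pathway genes below the fold threshold. These were BMP1 (-0.59) and TCF3 (-0.54) at 3 days, BMPR2 (-0.57) at 6 days, CRIM1 (0.58) from 3 to 6 days and RUNX2 (-0.59) in MetaICM against Control.

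The replicate numbers are shared across conditions, but the labels do not say that a number marks a batch. The deviations of same-numbered libraries had r from -0.17 to 0.27 across 14109 genes, with 0.27 for Control and 3 days and 0.14 for 3 and 6 days, and BMP2 and ID1 to ID4 were higher in replicate 1 in both Control and 3 days. Whether the numbers mark a shared batch was not tested. With the replicate block 3915, 5116, 1450, 2823 and 4484 genes were called in the same order, with 6, 7, 3, 2 and 6 of the 9 genes and 16, 17, 14, 13 and 18 of the other pathway genes. The gene added among the 9 at 3 days was ID2.

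Low depth limits ID4, with 9 to 35 reads per library, and with 2 libraries per condition the spread itself is poorly known. Control replicate 2 was the shallowest library.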
